A study of Mus musculus with 6 samples.

Results

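The genes described here encode the enzymes that build cholesterol and fatty acids from acetyl-CoA, with the regulators that control them, and they were measured in the prostates of 6 mice. A list of 35 gene symbols, picked for their place in these pathways, was matched to the gene names of the deposited table, and all 35 were found among its 34745 genes. Both groups were male C57BL/6 mice, 6 to 8 weeks old when the study began. In the T + E2 group, 3 mice carried a subcutaneous pellet of testosterone and oestradiol for 12 weeks, with a new pellet each month, and in the control group (CON group) 3 mice had the skin incision and closure alone. The protocols name the tissue only as prostate, without the lobe, and the mice were separate animals used for sequencing alone. Reads counted on genes totalled between 14816146 and 16555549 per mouse. Values are CPM, the read counts scaled to library size by the TMM method, given for mice 1, 2 and 3 of a group in that order, and means are ± SD with n = 3. Log2 fold changes are T + E2 over CON. A gene was called where the quasi-likelihood test of edgeR, corrected over all 15580 tested genes by the Benjamini-Hochberg method, gave an adjusted p under 0.05, and was a differentially expressed gene (DEG) where its absolute log2 fold change was also over 1.

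Cholesterol is made from acetyl-CoA by way of mevalonate, farnesyl diphosphate, squalene and lanosterol, and fatty acids by carboxylation of acetyl-CoA to malonyl-CoA and its repeated condensation on fatty acid synthase. Both routes are governed by the SREBP transcription factors, which are made as membrane proteins, carried by SCAP from the endoplasmic reticulum to the Golgi apparatus when sterol is low, cut there by a pair of proteases, and held back by INSIG proteins when sterol is high. The prostate is known for abundant lipid synthesis, and fatty acid synthase is a familiar androgen-responsive enzyme of prostate epithelium.

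SREBPs are known to bind sterol regulatory elements and E-boxes in the promoters of their target genes, often beside CCAAT boxes bound by their partner NF-Y. RefSeq start sites on build GRCm38.p6 were found for 29 of the 35 genes, with 36 windows of the 250 bases before a start. Fdps, Fdft1, Sqle, Scd1, Scd2 and Fads1 had no window and were not searched, and of these Fdps, Fdft1 and Fads1 were called genes. Each window was searched on both strands for TCACNCCAC (a sterol regulatory element), CCAAT (the NF-Y box) and the E-box CACGTG. The windows below belong to called genes. Among the called genes that had a window, Acsl1 alone held TCACNCCAC, and Acsl3 and Fasn had the smallest adjusted p. Capitals mark the matches, which may lie on either strand, and each sequence is written 5′ to 3′ along the strand of its gene. The printed Acsl1 window (chr8:46490716-46490965, plus strand) lies before an internal start, in an intron of Acsl1. The other Acsl1 window (chr8:46470787-46471036, plus strand), at the start of the gene, held none of the searched letters. The Acsl3 window (chr1:78657575-78657824, plus strand) and the Fasn window (chr11:120824548-120824797, minus strand) lie outside annotated genes.
Acsl1: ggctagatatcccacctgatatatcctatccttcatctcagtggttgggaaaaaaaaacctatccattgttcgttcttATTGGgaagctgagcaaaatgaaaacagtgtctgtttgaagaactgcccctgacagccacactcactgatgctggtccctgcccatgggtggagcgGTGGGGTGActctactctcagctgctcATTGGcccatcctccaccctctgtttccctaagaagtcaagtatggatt
Acsl3: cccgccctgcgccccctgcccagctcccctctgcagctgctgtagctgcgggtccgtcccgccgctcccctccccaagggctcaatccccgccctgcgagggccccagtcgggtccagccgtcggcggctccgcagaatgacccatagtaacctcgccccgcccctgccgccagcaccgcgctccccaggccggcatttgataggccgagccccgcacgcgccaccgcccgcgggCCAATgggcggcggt
Fasn: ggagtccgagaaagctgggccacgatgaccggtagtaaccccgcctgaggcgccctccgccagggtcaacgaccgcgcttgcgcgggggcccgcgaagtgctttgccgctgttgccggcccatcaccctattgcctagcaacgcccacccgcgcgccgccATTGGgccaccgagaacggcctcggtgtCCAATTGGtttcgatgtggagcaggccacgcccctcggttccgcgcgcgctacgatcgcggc

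In the printed Acsl1 window the sterol regulatory element begins 76 bases before the start and reads in reverse, with CCAAT boxes in reverse at 172 and 49 bases. In Fasn, 3 CCAAT boxes begin 90, 62 and 59 bases before the start, the last pair overlapping each other on opposite strands, and in Acsl3 a single box begins 15 bases before it. CCAAT was found for 24 of the 29 genes (82.8%), against 37.5% of the 27025 genes with a window and 39.7% of those that were also tested. The letters TCACNCCAC were found for 2 genes, Acsl1 and Hmgcs1 (6.9%, against 1.22% of all genes), and the E-box for 5 (17.2%, against 6.86%). Other spellings of a sterol regulatory element were not searched for. The windows of Acaca, Acsl4, Elovl6, Elovl7 and Fads2 held none of these letters on either strand. The only Acaca window (chr11:84195188-84195437, plus strand) lies inside the gene, which starts at 84129672. The bases before that start were not searched. These shares describe letters in short windows and say nothing of binding. CCAAT was present in the window of Fasn, the only gene called higher that had a window, and in windows of genes called lower, such as Acsl3.

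Of the 35 genes, all of which could be tested, 2 were called higher and 7 lower in the T + E2 group. Among all tested genes 10.4% were called higher and 9.25% lower. With the threshold on the fold change added, 1 gene was a higher DEG (Fdft1) and 0 were lower DEGs, where 4.27% and 3.38% of all tested genes were. DESeq2, limma and the unadjusted p of edgeR at 0.05 also gave 0 lower DEGs. The groups did not overlap, with every T + E2 mouse above or below every CON mouse, for 3 genes that were higher and 10 that were lower. Over all tested genes this held for 20.0% and 20.7%. The median log2 fold change of the 35 genes was -0.07, from -0.79 to 1.24, and that of all tested genes was -0.002. The sum over the 35 genes ran from 2890 to 3066 CPM in the CON group and from 3137 to 3403 CPM in the T + E2 group. Without Fasn the sums overlapped, from 2676 to 2856 and from 2662 to 2874 CPM. The count of lower genes rested on modest changes, and was 3 to 5 when single mice were left out, with 4 without CON replicate 1, CON replicate 3 or T + E2 replicate 2 and 3 without T + E2 replicate 1.

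**Figure D1:**
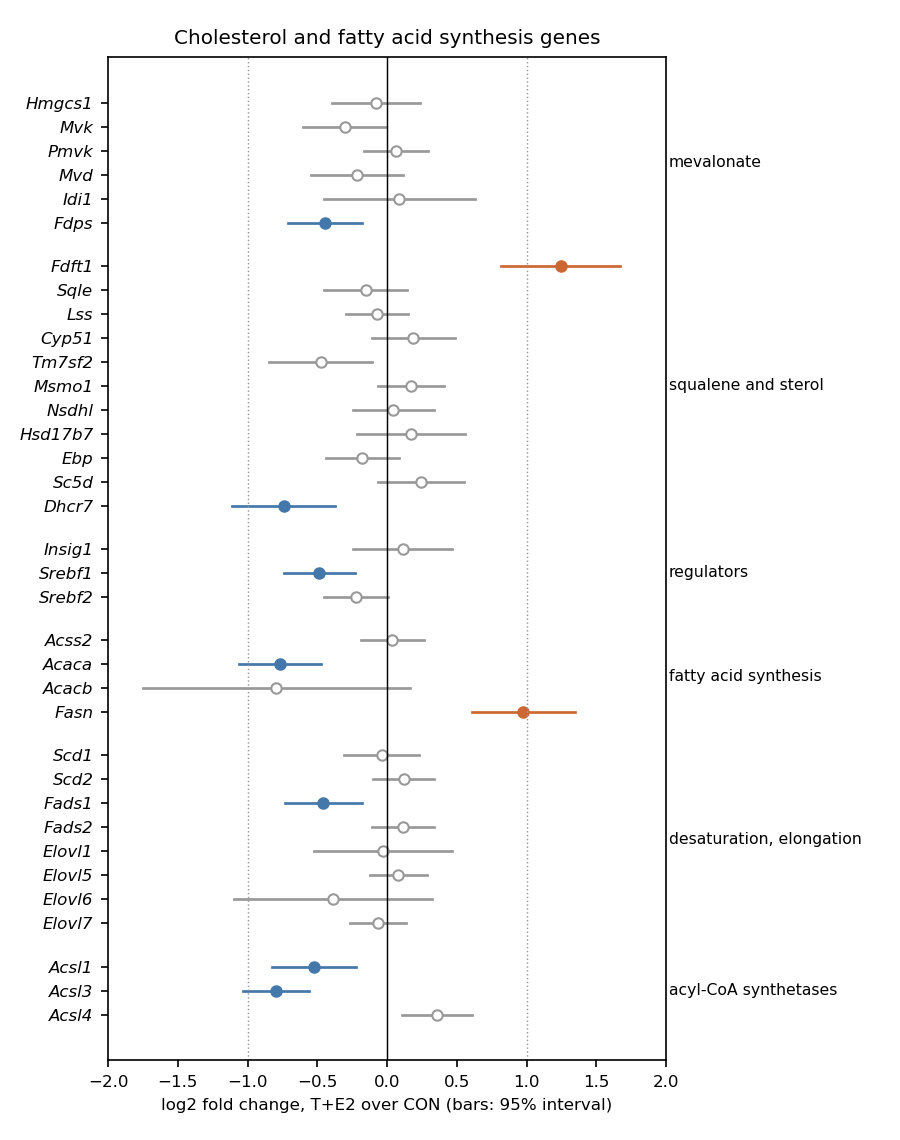
Log2 fold change (T + E2 over CON) of the 35 genes with its 95% interval, grouped by role, with filled points for an adjusted p under 0.05 and dotted lines at a log2 fold change of 1 in either direction. Fdft1 and Fasn lie to the right, 7 called genes lie between -0.79 and -0.45, and most of the remaining intervals cross 0.

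Most of the cholesterol pathway was not called. Among the 6 genes of the mevalonate segment, Fdps alone was called, and it was lower. Fdps encodes farnesyl diphosphate synthase, whose product stands at the branch towards sterols, dolichol, ubiquinone and protein prenylation. Its values were 22.4, 25.1 and 24.5 CPM in the CON mice and 16.3, 19.7 and 16.8 CPM in the T + E2 mice. Each T + E2 mouse was below each CON mouse. The log2 fold change was -0.45 (standard error, SE, 0.11, adjusted p = 0.0302 from edgeR). This call was lost without CON replicate 2, CON replicate 3, T + E2 replicate 1 or T + E2 replicate 3 (adjusted p of 0.0938, 0.0883, 0.0962 and 0.0697 from edgeR). Fdps (chromosome 3, 89093588 to 89101959) shares 1124 exon bases with Gm43738 on the same strand, which had 0.928 ± 0.431 and 2.16 ± 1.44 CPM, and processed pseudogenes up to 98.9% identical to it occur in the genome, so the counts of this gene are uncertain.

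Hmgcs1, the cytosolic HMG-CoA synthase that opens the pathway and a standard sterol-responsive gene, had 49.6 ± 3.15 CPM in the CON group and 46.9 ± 8.81 CPM in the T + E2 group (log2 fold change -0.08, 95% interval -0.40 to 0.24). The kinases Mvk and Pmvk, the decarboxylase Mvd and the isomerase Idi1 had log2 fold changes of -0.30, 0.06, -0.21 and 0.09, with edgeR adjusted p-values from 0.139 to 0.822. For Mvk alone of these 4 the groups did not overlap.

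Squalene synthase showed the widest change of the 35 genes. Fdft1 (chromosome 14, 63145153 to 63177793), which encodes this enzyme and so the first committed step of sterol synthesis, had 40.4, 46.3 and 41.5 CPM in the CON mice and 123, 108 and 72.3 CPM in the T + E2 mice. All T + E2 mice lay above the CON mice, and T + E2 replicate 3 was the lowest of them. Fdft1 rose 2.37-fold, a log2 fold change of 1.24 (SE 0.19, adjusted p = 0.00307 from edgeR). Leaving out single mice gave 1.08 to 1.44, and each of these fits passed. At its 3′ side 774 exon bases of Fdft1, 18.3% of its annotated exon length, overlap exons of Ctsb, the gene of the lysosomal protease cathepsin B, on the opposite strand. Ctsb had 317, 323 and 308 CPM in the CON mice and 1089, 1115 and 916 CPM in the T + E2 mice, higher by 1.72 ± 0.11 (SE) in log2 terms (adjusted p = 5.25e-05 from edgeR). T + E2 replicate 3 was the lowest of its group for both genes. Whether counting used the strand is not given in the sources used here, and the part of Ctsb reads in the Fdft1 values was not tested. A processed pseudogene of Fdft1, 97.4% identical over 1249 bases, also exists in the annotation, and its part in these values was not tested.

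Downstream of squalene only the last gene of the route was called. Sqle, the squalene epoxidase that limits the later pathway, had 29.2, 30.6 and 32.3 CPM in the CON mice and 29.7, 30.6 and 22.6 CPM in the T + E2 mice. The groups overlapped and 1 mouse, T + E2 replicate 3, was lower than the other 5. The log2 fold change was -0.15 with a 95% interval of -0.45 to 0.15 (adjusted p = 0.441 from edgeR). Lss, Cyp51, Msmo1, Nsdhl, Hsd17b7, Ebp and Sc5d, which close the ring and remodel it towards cholesterol, had log2 fold changes between -0.18 and 0.24 and none was called. Tm7sf2, a sterol reductase, was lower without overlap of the groups, at 13.5 ± 1.96 against 18.8 ± 3 CPM, but missed the threshold (log2 fold change -0.47, adjusted p = 0.0745 from edgeR). It shares 532 exon bases with Vps51, which had a log2 fold change of -0.46 (adjusted p = 0.0199 from edgeR).

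Dhcr7 (chromosome 7, 143823145 to 143848410), the reductase that turns 7-dehydrocholesterol into cholesterol, fell. Dhcr7 had 22.6, 27.4 and 19.5 CPM in the CON mice and 14.5, 15.3 and 11.8 CPM in the T + E2 mice, without overlap. This was 1.67-fold lower, with a log2 fold change of -0.74 (SE 0.16, adjusted p = 0.0156 from edgeR). It was called in each fit that left out 1 mouse (adjusted p of 0.0167 to 0.0439 from edgeR), but not without CON replicate 2 and T + E2 replicate 2 together (log2 fold change -0.68, adjusted p = 0.0673).

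**Figure D2:**
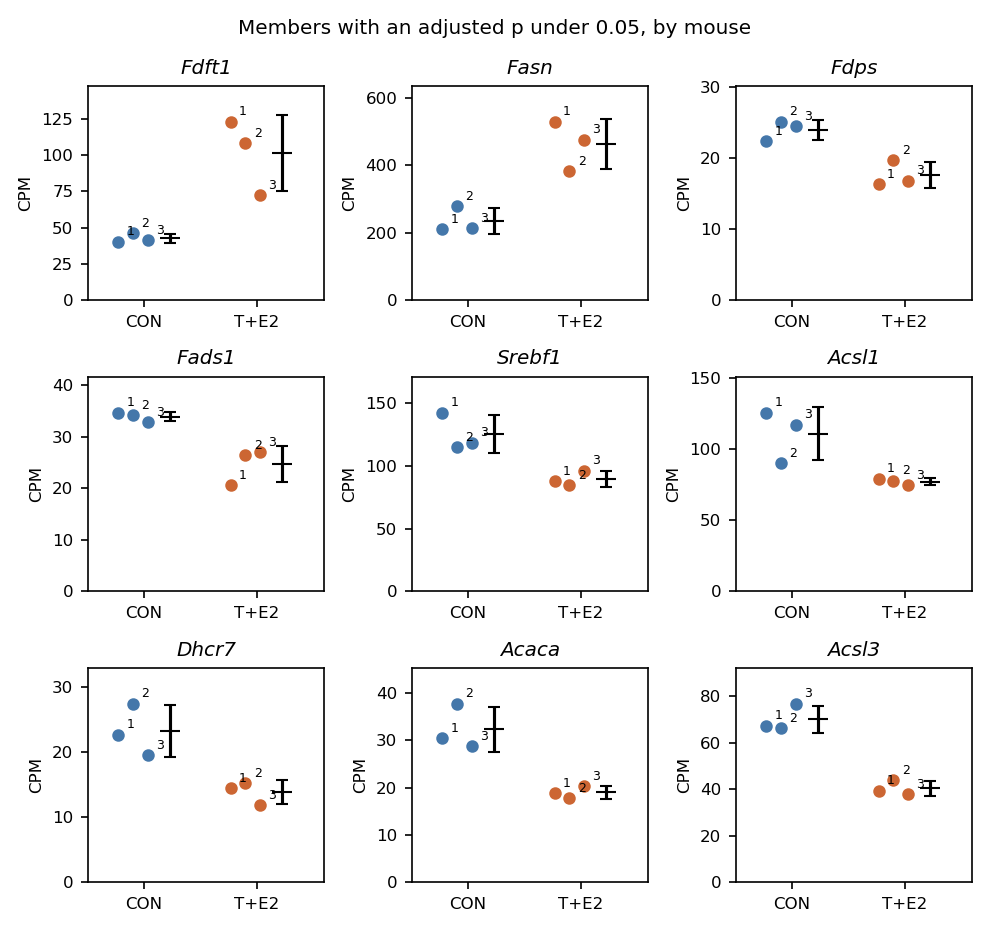
CPM of the 9 called genes in each mouse (points, numbered by replicate), with the mean and SD of the 3 mice of a group beside them, each panel starting at 0. The groups do not overlap in any panel, and T + E2 replicate 3 lies well below its group for Fdft1.

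Of the 3 regulators, Srebf1 alone was called, and it was lower. Srebf1 (chromosome 11, 60199089 to 60222581), which encodes the SREBP forms tied mainly to fatty acid synthesis, had 142, 115 and 119 CPM in the CON mice and 87.9, 84.5 and 96.4 CPM in the T + E2 mice. The highest T + E2 mouse was below the lowest CON mouse. Srebf1 had a log2 fold change of -0.49 (SE 0.11, adjusted p = 0.0196 from edgeR). The call was lost without CON replicate 1, T + E2 replicate 1 or T + E2 replicate 2 (adjusted p of 0.0514, 0.0704 and 0.0609 from edgeR). The counts are per gene, so the Srebf1 transcripts that start at different promoters are summed.

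Srebf2, whose product acts mainly on cholesterol genes, had 157, 163 and 156 CPM in the CON mice and 147, 120 and 139 CPM in the T + E2 mice. The groups did not overlap, yet it was not called (log2 fold change -0.22, 95% interval -0.45 to 0.004, adjusted p = 0.151 from edgeR). Insig1, itself a sensitive target of the SREBPs, had 38, 36.4 and 43.1 CPM in the CON mice and 49.6, 44.5 and 33 CPM in the T + E2 mice. The T + E2 mice lay both above and below the CON mice. Its log2 fold change was 0.11 (95% interval -0.24 to 0.47, adjusted p = 0.646 from edgeR), and it turned to -0.01 without T + E2 replicate 1.

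In fatty acid synthesis, consecutive enzymes moved in opposite directions. Fasn (chromosome 11, 120805846 to 120824547), the fatty acid synthase, had 210, 280 and 214 CPM in the CON mice and 529, 382 and 476 CPM in the T + E2 mice. All T + E2 mice were above all CON mice. The log2 fold change was 0.98 (SE 0.16, adjusted p = 0.00459 from edgeR), a 1.97-fold rise, so that Fasn was called but stayed just under the fold threshold of a DEG. Without CON replicate 2 it was 1.12 (adjusted p = 0.00394 from edgeR), over that threshold. It was also over it without T + E2 replicate 2.

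Acaca (chromosome 11, 84129672 to 84401651), the acetyl-CoA carboxylase that supplies malonyl-CoA to fatty acid synthase, had 30.3, 37.7 and 28.7 CPM in the CON mice and 18.7, 17.8 and 20.4 CPM in the T + E2 mice. The T + E2 mice were lower without overlap. Its log2 fold change was -0.77 (SE 0.13, adjusted p = 0.005 from edgeR), and each fit without 1 mouse passed. The FPKM of Fasn was 10.1, 10.8 and 10.8 times that of Acaca in the CON mice and 41.1, 31.3 and 34 times in the T + E2 mice, and the ratio of Fdft1 to Fdps was 3.59, 3.67 and 3.38 against 15, 11 and 8.56. These ratios were chosen after the genes' values were seen and are given as a description, with no test. A processed pseudogene of Acaca, 99.2% identical over 6118 bases, exists in the annotation and was not used here.

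**Figure D3:**
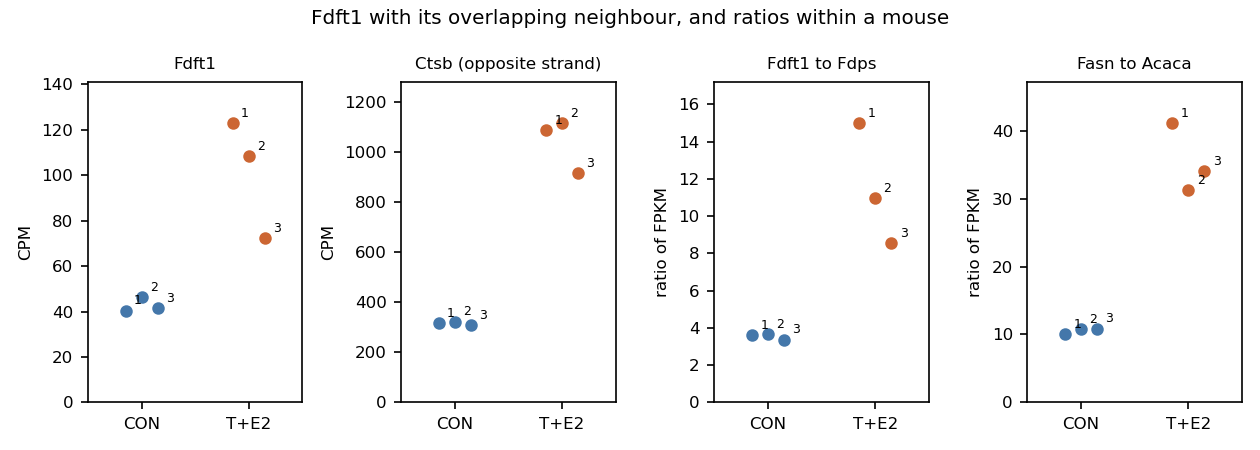
Fdft1 and the overlapping gene Ctsb in CPM, and the FPKM ratios of Fdft1 to Fdps and Fasn to Acaca, for each mouse (points, numbered by replicate), with axes starting at 0. Every panel separates the groups, and for both genes and the Fdft1 to Fdps ratio T + E2 replicate 3 is the lowest T + E2 mouse.

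Acss2, which makes acetyl-CoA from acetate, had 29 ± 1.83 and 29.7 ± 2.1 CPM (log2 fold change 0.04, 95% interval -0.19 to 0.26). Acacb, the carboxylase isoform at the mitochondrial surface that restrains fatty acid oxidation, had 6.29, 20.8 and 8.24 CPM in the CON mice and 5.74, 7.67 and 6.94 CPM in the T + E2 mice. CON replicate 2 alone was high. Its log2 fold change of -0.79 (adjusted p = 0.217 from edgeR) became -0.10 without that mouse (adjusted p = 0.802).

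CON replicate 2 also carried more RNA of adipocyte markers. The 12 markers summed to 1010 CPM in that mouse, against 281 and 357 CPM in the other CON mice and 226 to 354 CPM in the T + E2 mice. Adiponectin (Adipoq) had 8.81, 47.4 and 11.1 CPM in the CON mice and 12.3, 6.15 and 4.14 CPM in the T + E2 mice, and Plin1, Cidec, Cfd, Retn, Fabp4, Plin4, Lipe and Pnpla2 were also highest in CON replicate 2. None of these 9 genes was called, though 5 were lower at an unadjusted p under 0.05 from edgeR (Adipoq, Plin1, Plin4, Lipe and Pnpla2). For Lipe and Pnpla2 every T + E2 mouse was below every CON mouse. Cidea was the exception among the 10 tested markers and rose by 1.29 on the log2 scale (adjusted p = 0.00909 from edgeR). Leptin had at most 10 counts in a mouse and Ucp1, the marker of brown fat, at most 1. In bulk tissue fewer cells of a type and less RNA per cell cannot be told apart. Without CON replicate 2, 7 of the 9 called genes still passed, among them Fasn, Acaca, Dhcr7 and Acsl1 with log2 fold changes of 1.12, -0.64, -0.61 and -0.65. Fdps and Fads1 did not, at -0.41 and -0.45 (adjusted p of 0.0938 and 0.088 from edgeR).

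**Figure D4:**
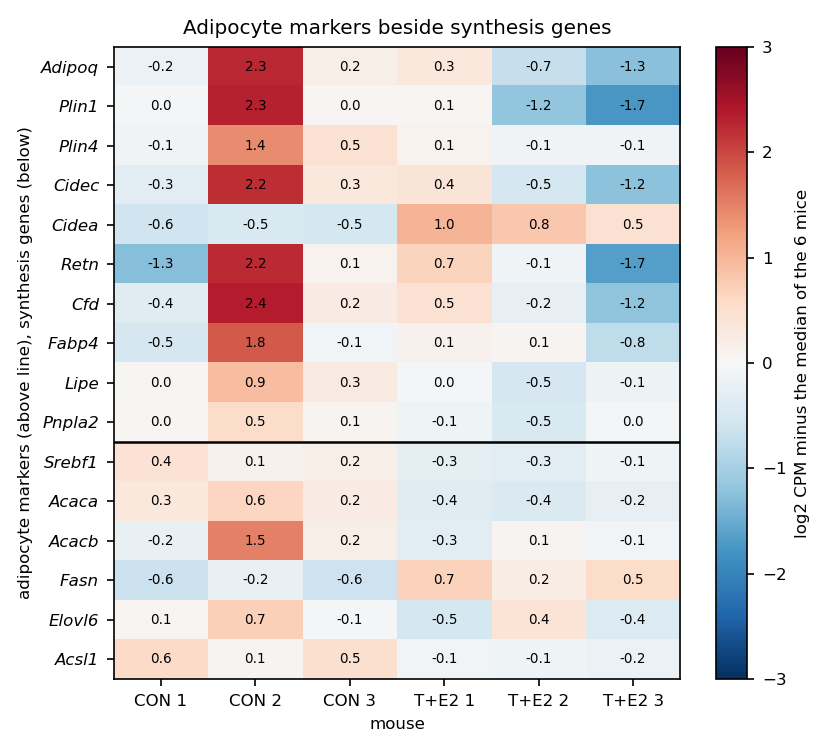
Log2 CPM minus the median of the 6 mice for the tested adipocyte markers (above the line) and for 6 synthesis genes chosen after their values were seen (below), one column per mouse. CON replicate 2 is highest in 9 of 10 markers and in Acaca, Acacb and Elovl6, while all T + E2 mice are above all CON mice in Fasn and Cidea.

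Of the 8 desaturases and elongases, which include the most abundant genes of the list, Fads1 alone was called. Scd1 and Scd2 encode stearoyl-CoA desaturases, which place the double bond of oleate. Scd2 had 1025, 926 and 929 CPM in the CON mice and 1078, 1051 and 999.7 CPM in the T + E2 mice, with overlapping groups and a log2 fold change of 0.12 (95% interval -0.10 to 0.34). Scd1 had 439, 444 and 365 against 426, 365 and 425 CPM (log2 fold change -0.04, 95% interval -0.31 to 0.23). Their transcripts are 95.5% identical over 623 aligned bases, which could affect the split of reads between them, and this was not tested. Elovl1, Elovl5 and Elovl7 had log2 fold changes of -0.03, 0.08 and -0.07, and Elovl6, which extends palmitate to stearate, had -0.39 with a wide interval of -1.10 to 0.32 and -0.11 without CON replicate 2.

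Fads1 and Fads2 are neighbours on chromosome 19 and encode the delta-5 and delta-6 desaturases of polyunsaturated fatty acids. Fads1 (10182888 to 10196870) had 34.6, 34.2 and 32.8 CPM in the CON mice and 20.6, 26.5 and 27 CPM in the T + E2 mice, without overlap. Fads1 was lower by a log2 fold change of -0.46 (SE 0.12, adjusted p = 0.0326 from edgeR). The call held only without T + E2 replicate 3 among the 6 fits that left out 1 mouse (adjusted p of 0.0366 to 0.088 from edgeR). Fads2 had 24.8 ± 1.89 and 26.9 ± 0.618 CPM, with a log2 fold change of 0.11 (95% interval -0.11 to 0.34). The difference between the changes of these neighbours was not tested.

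Of the 3 acyl-CoA synthetases, which activate free fatty acids for further use, Acsl1 and Acsl3 were called lower and Acsl4 was not called. Acsl3 (chromosome 1, 78657825 to 78707743), the isoform of the endoplasmic reticulum and lipid droplets, fell from 67.4, 66.2 and 76.8 CPM in the CON mice to 39.5, 43.9 and 37.9 CPM in the T + E2 mice. The groups were far apart. At -0.79 (SE 0.10), its log2 fold change (adjusted p = 0.00157 from edgeR) had the smallest adjusted p of the 35 genes, and each fit that left out 1 mouse passed. It shares 244 exon bases with Utp14b on the same strand, which had 10.4 ± 1.08 and 8.59 ± 1.53 CPM.

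Acsl1 (chromosome 8, 46471041 to 46536051) had 126, 90.2 and 117 CPM in the CON mice and 79.3, 77.9 and 74.7 CPM in the T + E2 mice. CON replicate 2 was the lowest CON mouse and still above the T + E2 mice. The log2 fold change was -0.52 (SE 0.13, adjusted p = 0.0268 from edgeR), and the call was kept only without CON replicate 2 among the fits that left out 1 mouse (adjusted p of 0.00765 there, and up to 0.0863 in the others, from edgeR). Acsl4, which prefers arachidonic acid, had 143 ± 15.4 and 183 ± 15.8 CPM, higher without overlap, and missed the threshold (log2 fold change 0.36, adjusted p = 0.0556 from edgeR). DESeq2 called it (adjusted p = 0.0245), as did edgeR without CON replicate 1 (adjusted p = 0.0406).

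Among the 26 genes that were not called, the 95% interval of the log2 fold change lay within 1 of 0 for 24, so that a change of the size of a DEG was outside their intervals, and within 0.5 for 16. The intervals of Acacb and Elovl6 reached further.

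Levels between genes were compared as FPKM, which divides by a gene length. In the CON group Scd2 stood highest at 178 ± 11.8 FPKM, followed by Scd1 at 87.2 ± 10.8 and Srebf2 at 32.1 ± 1.22 FPKM. Elovl6 at 0.781 ± 0.25 and Acacb at 0.918 ± 0.626 FPKM were lowest, and these 2 did not differ beyond their spread. Fdft1 moved from rank 9 at 15.1 ± 1.26 FPKM in the CON group to rank 3 at 34.7 ± 8.11 FPKM in the T + E2 group, next to Fasn at 32.7 ± 4.81 FPKM, and these did not differ beyond their spread. The lengths behind the FPKM were 0.458 to 1.95 times the exon length of GENCODE M21, and with the latter Scd2 and Scd1 were again first and second, while Srebf2 was at rank 6 in the CON group. Fdft1 was then at rank 15 in the CON group and rank 5 in the T + E2 group, where it had 23.9 CPM per kilobase against 42.2 for Fasn at rank 3, so the closeness of these genes in FPKM depends on the lengths used.

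**Figure D5:**
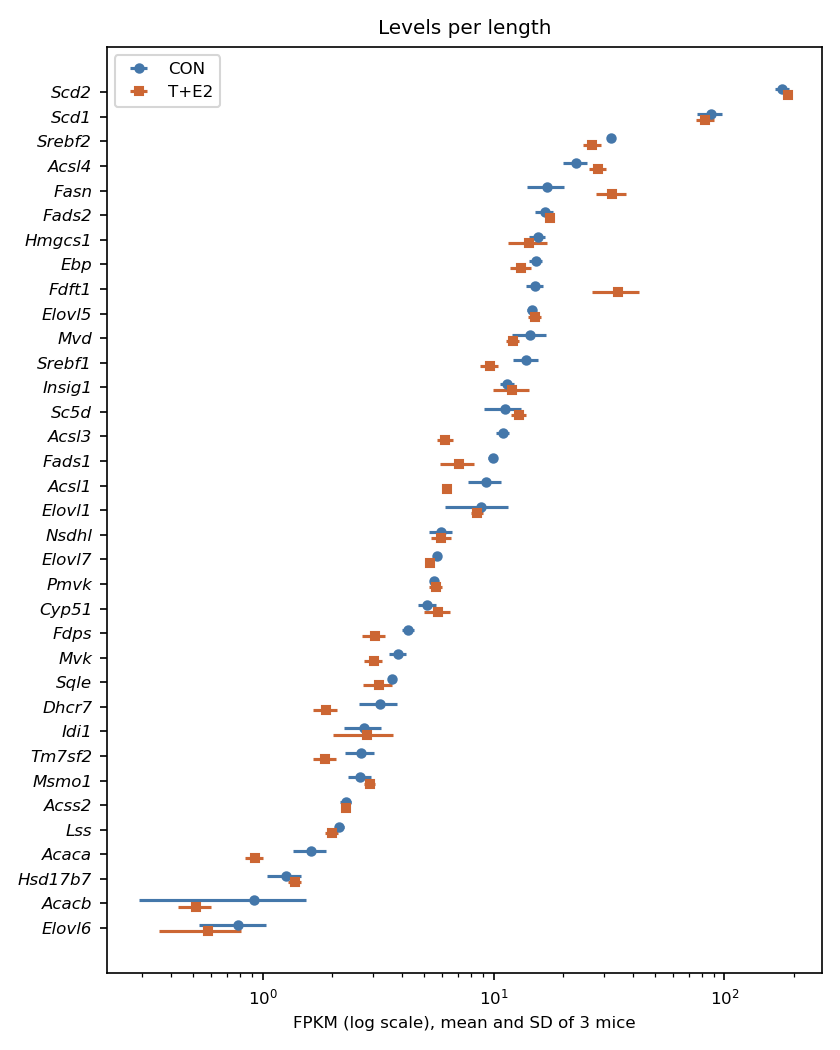
Mean FPKM of the 35 genes with the SD of 3 mice in the CON group (circles) and the T + E2 group (squares), on a log axis, ordered by the CON mean. Scd2 and Scd1 lie highest in both groups, and Fdft1 and Fasn are shifted to the right in the T + E2 group.

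The wider lipid network was followed in 73 further genes, of which 69 could be tested. In the T + E2 group 10 were called higher and 6 lower (23.2%, against 19.6% of all tested genes), and 1 was a DEG. That gene was Soat1, which stores cholesterol as its fatty acid ester. It had 27.9, 22 and 21.1 CPM in the CON mice and 98.6, 97.5 and 95.6 CPM in the T + E2 mice. The T + E2 mice lay close together and far above the CON mice, a 4.11-fold rise. Its log2 fold change was 2.04 (SE 0.12, adjusted p = 3.86e-05 from edgeR), and 1.96 to 2.17 with each mouse left out.

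Of 8 genes of the SREBP machinery, 2 were called higher and 1 lower. Mbtps1, the site-1 protease that cuts the SREBPs, rose from 470.3 ± 23.3 to 759 ± 37.4 CPM (log2 fold change 0.69, adjusted p = 0.00199 from edgeR) and Insig2 from 26.5 ± 2.56 to 36.2 ± 3.7 CPM (0.45, adjusted p = 0.0302). Scap, the escort protein, fell from 189 ± 6.48 to 126 ± 17.3 CPM (-0.58, adjusted p = 0.01). Cholesterol uptake and transport had 3 of 13 called higher and 1 lower. Besides Soat1, the higher genes were Npc2, a lysosomal cholesterol carrier, with a log2 fold change of 0.83, and the sterol receptor gene Nr1h3 with 0.59, and the lower gene was the ubiquitin ligase gene Mylip with -0.40. All genes named in these lists except Soat1 were picked after their values were seen.

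Suppliers of acetyl-CoA and NADPH had 2 of 8 called higher and 1 lower. The NADPH enzymes G6pdx and Me1 rose, with log2 fold changes of 0.93 and 0.67 (adjusted p = 0.000685 and 0.00273 from edgeR), while the citrate carrier Slc25a1 fell by 0.59 on the log2 scale (adjusted p = 0.0322). G6pdx shares 418 exon bases with Ikbkg on the opposite strand. Of 12 genes of triglyceride synthesis and its control, Mid1ip1 and Gpam were called higher and Lpin1 lower, with log2 fold changes of 0.68, 0.28 and -0.85. Fatty acid oxidation had 0 of 10 called higher and 2 lower by edgeR, Acadl with -0.81 and Cpt1a with -0.35, and 2 were higher at an unadjusted p under 0.05. DESeq2 and limma also called 0 higher there. Of 12 other elongation, desaturation and activation genes, Hacd4 alone was called and was higher, and of 6 other sterol and prenyl enzymes 0 were called by edgeR, DESeq2 or limma, with 1 higher and 1 lower at an unadjusted p under 0.05. The counts of higher genes were smaller with other tools for some lists. DESeq2 and limma called 2 higher in uptake and transport and 1 in triglyceride synthesis, limma called 1 in the SREBP machinery, and limma on log2(FPKM + 0.1) called 0 in the list of Hacd4, where 2 were higher at an unadjusted p under 0.05.

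Markers of some other cell types differed between the groups and those of others did not separate them. The 4 urothelial markers, of which 3 could be tested and were called higher, summed to between 422 and 642 CPM in the CON mice and between 1374 and 1700 CPM in the T + E2 mice, mostly from Upk1a. Upk2 was low in both groups, at 0.781 ± 0.146 and 3.61 ± 1.22 CPM. Upk3a, which was not tested, had 0 counts in each CON mouse and 5, 99 and 3 counts in the T + E2 mice. The 9 luminal prostate markers summed to between 37936 and 50693 CPM in the CON mice and between 12518 and 13610 CPM in the T + E2 mice, with 3 of them called higher and 3 lower. Smooth muscle markers, with 2 of 5 called lower, ran from 3350 to 4182 and from 2906 to 3197 CPM. Basal epithelial markers had overlapping sums, from 155 to 257 CPM in the CON mice and from 245 to 313 CPM in the T + E2 mice. Of these 4 markers Trp63 alone was called, and it was higher (log2 fold change 0.57, adjusted p = 0.0108 from edgeR). The leukocyte, fibroblast, endothelial and skeletal muscle lists had 0 called by edgeR, 0 at an unadjusted p under 0.05, and overlapping sums, for leukocytes from 28.3 to 47.7 and from 36.8 to 58 CPM. Seminal vesicle transcripts were abundant in 2 mice, at 10322 CPM in CON replicate 2 and 643 CPM in T + E2 replicate 2, and at most 4.11 CPM in the others. With both of these mice left out, Fdft1, Fasn, Acaca, Acsl1 and Acsl3 were still called. Fdps, Srebf1, Fads1 and Dhcr7 were not (adjusted p of 0.0821, 0.0797, 0.126 and 0.0673 from edgeR), though their log2 fold changes of -0.50, -0.50, -0.50 and -0.68 were close to those with all mice. The part of these cell types in the results was not tested.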

How the data were processed

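RNA from the prostates of 3 CON and 3 T + E2 mice was sequenced from TruSeq libraries. The authors deposited 1 table of 34745 genes with raw read counts per gene and FPKM values for each mouse, and every column belongs to one of the 6 mice. The submitters' processing notes name TopHat, Bowtie2 and HTSeq, while versions, genome build, annotation and counting mode are not given in the sources used here. The FPKM equal the counts divided by a fixed gene length and the library total. Coordinates are those of the table, and all 35 genes overlap their GENCODE M21 gene on GRCm38, 24 with the same start and end.

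Counts were analysed with edgeR 4.0.16 in R 4.3.3 (filterByExpr with a minimum count of 10 and total of 15, TMM, glmQLFit, glmQLFTest, Benjamini-Hochberg over 15580 genes). Standard errors are the log2 fold change over the root of F, and 95% intervals use the moderated degrees of freedom. Values of 3 counts, 0.183 to 0.208 CPM, were taken as the detection floor for counting error only. Replicates differed by more than sampling noise (chi-square per degree of freedom of 17.8 to 39). Alternatives were RLE and total-count scaling, DESeq2 1.42.0, other filters, limma 3.58.1 on log2(FPKM + 0.1) and log2(FPKM + 1), a replicate block and each mouse left out.

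The genes, the lists and the rule for genes named (called members, 5 fixed members, and DEGs of the related lists) were chosen with earlier results of these data known. Near-identical copies were searched for among GENCODE M21 transcripts (BLAST+ 2.17.0+, identity of 90% or more, alignments of 100 bases or more). Sequences are from RefSeq (GRCm38.p6). A planned protein comparison of Scd1 and Scd2 was made on transcripts instead. One listed symbol, Erg28, did not match the table. One gene of the related lists is not reported here.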

Additional observations from a re-analysis of the deposited data

How the results depend on the processing

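Of the 15 alternatives, the 7 with another scaling, filter, unit or tool kept all 9 genes called in the same directions, with Tm7sf2 added under total-count scaling (adjusted p = 0.0477 from edgeR) and Acsl4 by DESeq2. The count of lower genes, 7, was 4 under the replicate block and 3 without both mice that carried seminal vesicle transcripts, an alternative chosen after seeing the data, and the count of higher DEGs, 1, became 2 in that fit. With each mouse left out, 3 to 5 genes were lower, 2 to 3 higher, 1 to 2 higher DEGs and 0 lower DEGs. The log2 fold change of Insig1 then ranged from -0.0144 to 0.26, with the negative value without T + E2 replicate 1. Fdft1, Fasn, Acaca, Acsl3 and Soat1 were called in each alternative. Over all tested genes 3061 were called, against 1929 without CON replicate 3, 1978 without T + E2 replicate 2 and 1354 without both seminal vesicle mice, and 1191 were DEGs, against 561 by limma on log2(FPKM + 1). With fewer mice the fits have fewer degrees of freedom.

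Under the replicate block Fdps, Fads1 and Acsl1 lost their calls (adjusted p of 0.0525, 0.0661 and 0.0508 from edgeR), and 2174 genes were called in all. The replicate numbers name different mice. Deviations of same-numbered mice correlated at -0.05, 0.03 and 0.05, and those of differently numbered mice ran from -0.18 to 0.14. With 3 mice a group these correlations cannot decide whether same-numbered mice shared a processing step. The lowest count of a called gene in any mouse was 177 (Dhcr7), well above the floor of 3 counts, and with 3 mice a group the spread between mice limits the calls.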
